A study of Homo sapiens with 9 samples.

Results

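Fibronectin and 9 other secreted glycoproteins of the extracellular matrix were followed here: FN1, SPARC, TNC, THBS1, THBS2, FBN1, FBN2, FBLN1, POSTN and TGFBI. The genes were picked by symbol, with earlier results of these data known. All 10 were found among the 19389 genes of the expression table. RNA had been sequenced from SW1353, an established human chondrosarcoma cell line, in 3 groups of 3 libraries. Cells of the PBSL + IL-1β group were first given PBSL (Protaetia brevitarsis seulensis larvae, the larvae of a beetle) over 2 h and then interleukin-1β (IL-1β) at 20 ng/mL for 20 h. Cells of the IL-1β group received the inflammatory cytokine alone, at the same concentration and for the same time. The untreated group received neither agent. All groups share this 1 cell line, no group had PBSL without IL-1β, and the labels do not say which PBSL concentration was sequenced. They also do not say whether the libraries of a group came from separate cultures, so p-values measure the spread between these libraries only.

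Matrix glycoproteins bind collagens, growth factors and cell surface receptors, and they set how cells attach to their surroundings. Fibronectin is assembled into fibrils by integrins and offers binding sites to collagen, tenascin C and latent transforming growth factor β (TGF-β) complexes, while fibrillins form the microfibrils that hold such complexes in store. Matricellular proteins such as SPARC, tenascin C, the thrombospondins and periostin add little to the strength of the matrix and mainly tune cell adhesion and matrix assembly. In cartilage, fibronectin and tenascin C become more abundant in osteoarthritis, and fragments of fibronectin can drive chondrocytes to make proteases.

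The 250 bases before the RefSeq start are shown for genes that differ in direction below: FN1 and TNC, POSTN, and the thrombospondin pair THBS1 and THBS2. All 10 genes had such an entry in RefSeq (GRCh38.p14). FN1 lies on the minus strand (chr2:215436069-215436318), as do TNC (chr9:115118158-115118407), POSTN (chr13:37598769-37599018) and THBS2 (chr6:169253847-169254096), and THBS1 lies on the plus strand (chr15:39580829-39581078). Each is written 5′ to 3′ on the gene's strand. Capitals mark matches, on either strand, to TGACTCA or TGAGTCA (AP-1), GGGNNTTCC, or the same with 1 more N in the middle (NF-κB), GGAATG (TEAD), CAGACA (SMAD) and TGACGTCA (cAMP response element). The last motif was added after the sequences had been read.
FN1: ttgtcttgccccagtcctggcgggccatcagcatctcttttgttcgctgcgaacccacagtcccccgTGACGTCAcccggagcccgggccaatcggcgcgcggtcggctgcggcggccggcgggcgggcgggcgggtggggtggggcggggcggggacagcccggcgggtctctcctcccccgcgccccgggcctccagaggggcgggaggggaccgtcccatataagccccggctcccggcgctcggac
TNC: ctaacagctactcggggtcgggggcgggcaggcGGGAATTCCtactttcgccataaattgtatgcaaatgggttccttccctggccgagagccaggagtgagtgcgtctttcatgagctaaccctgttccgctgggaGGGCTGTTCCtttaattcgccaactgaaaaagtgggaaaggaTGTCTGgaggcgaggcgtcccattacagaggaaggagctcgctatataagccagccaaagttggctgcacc
POSTN: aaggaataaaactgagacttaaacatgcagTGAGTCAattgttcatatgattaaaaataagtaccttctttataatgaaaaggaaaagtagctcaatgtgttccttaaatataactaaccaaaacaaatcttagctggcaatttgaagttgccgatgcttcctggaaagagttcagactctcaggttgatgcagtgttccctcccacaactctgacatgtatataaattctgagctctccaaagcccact
THBS1: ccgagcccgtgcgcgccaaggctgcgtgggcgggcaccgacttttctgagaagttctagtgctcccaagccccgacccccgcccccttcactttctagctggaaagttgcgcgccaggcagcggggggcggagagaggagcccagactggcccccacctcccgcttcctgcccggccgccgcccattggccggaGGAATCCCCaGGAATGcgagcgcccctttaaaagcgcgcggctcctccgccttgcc
THBS2: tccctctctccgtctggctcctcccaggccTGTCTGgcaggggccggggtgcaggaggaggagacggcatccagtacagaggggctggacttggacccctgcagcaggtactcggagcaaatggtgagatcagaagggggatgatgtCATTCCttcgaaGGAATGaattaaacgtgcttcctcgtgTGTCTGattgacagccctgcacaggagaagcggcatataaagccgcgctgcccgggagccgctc

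These windows differed in base composition and in the motifs they held. The share of G and C was 76.4% for FN1, 54.8% for TNC, 69.6% for THBS1, 60% for THBS2 and 36.4% for POSTN. FN1 held a cAMP response element at -183 to -176 from the start, a motif found in 1.65% of 35116 promoter windows of this length. TNC held NF-κB matches at -217 to -209 and at -113 to -104, and THBS1 held one at -56 to -48, against 9.61% of windows with at least 1 match. POSTN held an AP-1 match at -220 to -214 (4.2% of windows). THBS2 held a pair of TEAD matches at -103 to -98 and -91 to -86 in opposite orientation, where 11.9% of windows held at least 1 match. It also held SMAD matches at -220 to -215 and -64 to -59, where 13.6% of windows held at least 1. Windows with a pair of matches were not counted. TNC held a SMAD match at -71 to -66, and THBS1 a TEAD match at -46 to -41. Of the genes not shown, SPARC held a TEAD match, FBN1 an NF-κB and a TEAD match, and FBN2, FBLN1 and TGFBI held none. A match is a run of letters and not a bound site.

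The deposited values are normalized, though the sources used here do not say whether as FPKM or TPM, and their low end scales with transcript length, so levels of different genes are compared on a per-length scale. Among genes that never reached 0.3, the smallest value above 0 had a median of 0.049 for 845 genes with under 2000 exonic bases and of 0.015 for 1028 genes with at least 5000. The values summed to 523758 to 553196 per library, they are not counts, and the read depth behind them is unknown. A gene was tested when it reached 1 in at least 3 libraries, which left 11924. Fold changes were fitted with limma on log2(value + 1) over all 9 libraries and a gene was called where the p, adjusted after Benjamini-Hochberg, was under 0.05. On the second principal component (16.6% of the variance), PBSL + IL-1β replicate 1 lay at 0.578, the other PBSL + IL-1β libraries at 16.8 and 18.2, and the IL-1β libraries at -12.4 to -11.5. Results that turn on it are given without it too. All 10 genes listed as a check of the cytokine rose in both groups that received IL-1β relative to untreated cells. Among them CCL20, IL6, CXCL1 and PTGS2 averaged 0.0713, 0.16, 0.743 and 0.836 in untreated cells. They passed the filter through the groups given IL-1β, so the filter favoured their rise. Between PBSL + IL-1β and IL-1β MMP1 (0.47) rose and MMP3 (-0.32) and IL6 (-0.56) fell. Of 12 mesenchymal markers 11 were tested, and vimentin (VIM) averaged 3328 ± 67.7, 3270 ± 19 and 3149 ± 133 in the PBSL + IL-1β, IL-1β and untreated groups (SD, n = 3 each). Of 17 chondrocyte markers, 12 stayed under 1 in every library, and COL2A1, which encodes the collagen that defines cartilage, never exceeded 0.027.

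The 10 genes ranged from among the most abundant transcripts of these cells to hardly detected. FN1, SPARC and THBS1 together made up 87.8% to 89.6% of the summed values of the 10 genes in every library. That sum was 2129 to 2483 in PBSL + IL-1β libraries, 3010 to 3067 in IL-1β libraries and 2155 to 2295 in untreated libraries. By mean level the order with IL-1β was FN1, SPARC, THBS1, TNC, TGFBI, FBN1, POSTN, FBN2, THBS2 and FBLN1, with overlapping libraries only for FBN2 and THBS2. With PBSL + IL-1β the order was the same, and the libraries overlapped for FBN2 and THBS2 and for SPARC and THBS1. In untreated cells SPARC and FN1 overlapped at the top, FBN1 stood above TGFBI, and THBS2 above FBN2. The cells were measured in bulk, so fewer cells that express a gene and less RNA per cell cannot be told apart.

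**Figure D1:**
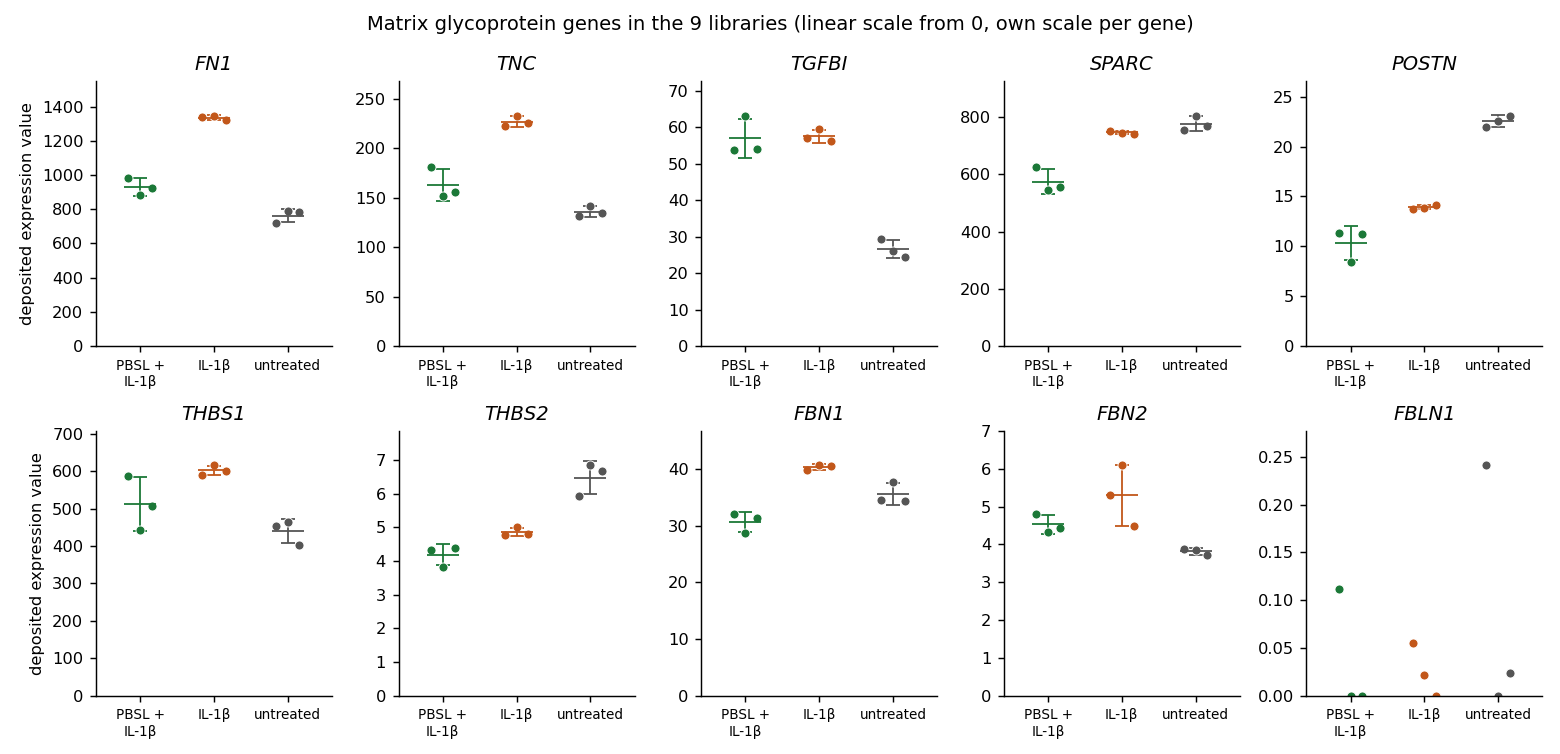
Deposited expression value (vertical axis, linear from 0, own scale per gene) of each of the 10 genes in the 9 libraries, grouped as PBSL + IL-1β, IL-1β and untreated. Points are libraries, and bars are mean ± SD (n = 3), which are left out for FBLN1 because it is listed at 0 in 4 libraries. FN1 and TNC are highest with IL-1β, TGFBI averages 57.1 with PBSL + IL-1β and 57.7 with IL-1β, and POSTN is highest in untreated cells.

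FN1 encodes fibronectin and was the most abundant of the 10 genes in both IL-1β groups. It lies on chromosome 2 (hg38, 215360440 to 215436172, minus strand, GENCODE 29). Its values were 984, 882 and 926 in the PBSL + IL-1β libraries, 1339, 1348 and 1322 in the IL-1β libraries, and 718, 788 and 783 in the untreated libraries. No library of one group overlapped another group, and the PBSL + IL-1β libraries stood between the others. FN1 rose with IL-1β relative to untreated cells by 0.81 on the log2 scale (SE 0.056, adjusted p = 5.25e-07 by limma), a ratio of means of 1.75. It fell with PBSL + IL-1β relative to IL-1β by 0.52 on the log2 scale (SE 0.056, adjusted p = 0.00127 by limma). It was still higher with PBSL + IL-1β than in untreated cells, by a log2 fold change of 0.29 (adjusted p = 0.00168 by limma). In rank, FN1 was number 70 to 83 of all genes in the PBSL + IL-1β libraries, 40 to 44 in the IL-1β libraries and 93 to 114 in the untreated libraries. The values are per gene, so the splice forms of fibronectin were not resolved.

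TNC encodes tenascin C, a large many-armed glycoprotein that binds fibronectin and loosens cell adhesion, and it moved in the same directions as FN1. It lies on chromosome 9 (115019578 to 115118257, minus strand). Its values were 181, 152 and 155 with PBSL + IL-1β, 222, 233 and 225 with IL-1β, and 131, 142 and 134 in untreated cells. The 3 groups did not overlap. TNC rose with IL-1β relative to untreated cells (log2 fold change 0.74, SE 0.0664, adjusted p = 5.18e-06 by limma) and fell with PBSL + IL-1β relative to IL-1β (-0.48, SE 0.0664, adjusted p = 0.00282). PBSL + IL-1β was above untreated cells by 0.26 (adjusted p = 0.00916 by limma).

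TGFBI encodes a secreted adhesion protein with fasciclin domains, first found as a TGF-β-induced gene. It lies on chromosome 5 (136028895 to 136063818, plus strand). Its values were 53.9, 63.3 and 54.1 with PBSL + IL-1β, 57.0, 59.7 and 56.3 with IL-1β, and 29.3, 26.1 and 24.6 in untreated cells. Every library given IL-1β was above every untreated library, while the PBSL + IL-1β libraries lay on both sides of the IL-1β libraries. TGFBI rose by the widest margin of the 9 tested genes with IL-1β, by 1.09 on the log2 scale (SE 0.0763, adjusted p = 5.94e-07 by limma). It rose by 1.07 with PBSL + IL-1β relative to untreated cells (adjusted p = 7.21e-07 by limma). Between PBSL + IL-1β and IL-1β its log2 fold change was -0.02, with a 95% interval from -0.18 to 0.15 (adjusted p = 0.895 by limma). The whole interval lies above the fitted changes of FN1 and TNC, but a difference between these genes was not tested.

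POSTN encodes periostin, a relative of TGFBI that binds collagen and tenascin, and it was lowest where both agents were given. It lies on chromosome 13 (37562583 to 37598844, minus strand). Its values were 11.3, 8.38 and 11.3 with PBSL + IL-1β, 13.7, 13.8 and 14.1 with IL-1β, and 21.9, 22.6 and 23.1 in untreated cells. The groups did not overlap, and replicate 2 was the lowest of the PBSL + IL-1β libraries. POSTN fell with IL-1β relative to untreated cells by 0.66 on the log2 scale (SE 0.092, adjusted p = 0.000173 by limma). It fell with PBSL + IL-1β relative to IL-1β by 0.41 (SE 0.092, adjusted p = 0.011) and relative to untreated cells by 1.07 (adjusted p = 3.45e-06). The last is a ratio of means of 0.458.

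SPARC encodes a collagen-binding matricellular protein, also called osteonectin, and differed with PBSL + IL-1β. It lies on chromosome 5 (151661096 to 151687165, minus strand). Its values were 624, 545 and 554 with PBSL + IL-1β, 753, 745 and 742 with IL-1β, and 755, 805 and 770 in untreated cells. The IL-1β and untreated libraries did not overlap but lay close together. The log2 fold change of IL-1β against untreated cells was -0.06, with a 95% interval from -0.18 to 0.07 (adjusted p = 0.49 by limma), and without untreated replicate 2 it was -0.03. SPARC fell with PBSL + IL-1β relative to IL-1β by 0.38 on the log2 scale (SE 0.0571, adjusted p = 0.00312 by limma) and relative to untreated cells by 0.44 (adjusted p = 9.84e-05).

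The thrombospondins THBS1 and THBS2, which bind CD47 and restrain vessel growth, went opposite ways with IL-1β. THBS1 (chromosome 15, 39581079 to 39599466, plus strand) also activates latent TGF-β. Its values were 587, 442 and 506 with PBSL + IL-1β, 589, 615 and 600 with IL-1β, and 454, 464 and 404 in untreated cells. With PBSL + IL-1β, replicate 1 was just under the lowest IL-1β library and replicate 2 within the range of untreated cells. THBS1 rose with IL-1β relative to untreated cells (log2 fold change 0.45, SE 0.0889, adjusted p = 0.00214 by limma). Its change between PBSL + IL-1β and IL-1β was -0.24 (SE 0.0889, adjusted p = 0.0696), and without PBSL + IL-1β replicate 1 it was -0.35 and passed the threshold (adjusted p = 0.00421, the lowest of 16 alternatives, which ran up to 0.237). Without PBSL + IL-1β replicate 2 it was -0.14 (adjusted p = 0.237 by limma). Relative to untreated cells PBSL + IL-1β gave 0.21 (adjusted p = 0.0802 by limma), and without PBSL + IL-1β replicate 2 it gave 0.31 and passed (adjusted p = 0.0104, the lowest of a range up to 0.266), while without PBSL + IL-1β replicate 1 it gave 0.1 (adjusted p = 0.26).

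THBS2 (chromosome 6, 169215780 to 169254044, minus strand) was expressed at a much lower level. Its values were 4.35, 3.84 and 4.39 with PBSL + IL-1β, 4.79, 5.01 and 4.82 with IL-1β, and 5.93, 6.85 and 6.68 in untreated cells. The groups did not overlap and stood in that order from low to high. THBS2 fell with IL-1β relative to untreated cells by 0.35 on the log2 scale (SE 0.0736, adjusted p = 0.00336 by limma) and fell with PBSL + IL-1β relative to untreated cells by 0.53 (adjusted p = 0.000157). Between PBSL + IL-1β and IL-1β its log2 fold change was -0.18 (95% interval -0.34 to -0.02, adjusted p = 0.0982 by limma).

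FBN1 and FBN2 encode the fibrillins, the backbone of microfibrils. FBN1 is the main form in adult tissues and the gene of Marfan syndrome, and FBN2 is best known from development. FBN1 (chromosome 15, 48408306 to 48645849, minus strand) had values of 32.0, 28.7 and 31.3 with PBSL + IL-1β, 39.8, 40.7 and 40.6 with IL-1β, and 34.6, 37.8 and 34.4 in untreated cells. The PBSL + IL-1β libraries were the lowest and the IL-1β libraries the highest. FBN1 fell with PBSL + IL-1β relative to IL-1β by 0.39 on the log2 scale (SE 0.0582, adjusted p = 0.00312 by limma) and relative to untreated cells by 0.21 (adjusted p = 0.0133). The second of these calls was lost without untreated replicate 2 (adjusted p = 0.0582, the highest of a range down to 0.00764). Its rise with IL-1β relative to untreated cells was small (log2 fold change 0.18, adjusted p = 0.0355 by limma). That call was lost when values were rescaled to the same sum (adjusted p = 0.115) and without any 1 of IL-1β replicates 1, 2 and 3 and untreated replicates 1 and 3 (adjusted p = 0.0778, 0.105, 0.104, 0.116 and 0.12 in this order). Over all 16 alternatives its adjusted p ran from 0.0109 to 0.12.

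FBN2 (chromosome 5, 128257909 to 128659185, minus strand) had values of 4.81, 4.33 and 4.45 with PBSL + IL-1β, 5.31, 6.09 and 4.48 with IL-1β, and 3.88, 3.85 and 3.72 in untreated cells. Every library given IL-1β was above the untreated libraries, and the PBSL + IL-1β libraries overlapped those of IL-1β. FBN2 rose with IL-1β relative to untreated cells (log2 fold change 0.38, SE 0.0896, adjusted p = 0.00673 by limma). Its log2 fold changes were -0.18 between PBSL + IL-1β and IL-1β (95% interval -0.38 to 0.02, adjusted p = 0.171) and 0.2 between PBSL + IL-1β and untreated cells (adjusted p = 0.0958). The first of these was -0.09 without IL-1β replicate 2 (adjusted p = 0.537) and -0.27 without IL-1β replicate 3 (adjusted p = 0.0591), the ends of its range by limma.

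FBLN1 encodes fibulin 1, an elastic fibre and basement membrane protein, and was close to undetected. It lies on chromosome 22 (45502238 to 45601135, plus strand). It is listed at 0.112, 0 and 0 with PBSL + IL-1β, at 0.055, 0.022 and 0 with IL-1β, and at 0.241, 0 and 0.024 in untreated cells. It was below the filter and was not tested.

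With IL-1β relative to untreated cells, 6 of the 9 tested genes rose (TGFBI, FN1, TNC, THBS1, FBN2 and FBN1), 2 fell (POSTN and THBS2) and SPARC was not called. Among all 11924 tested genes 16.2% rose and 16% fell in this comparison, 32.1% in all. Between PBSL + IL-1β and IL-1β, 5 fell (FN1, TNC, POSTN, FBN1 and SPARC) and none rose by limma, where 11.5% of all tested genes rose and 11% fell, 22.5% in all. All 9 fold changes were below 0, and 7 had an unadjusted p under 0.05. In the PBSL + IL-1β libraries relative to untreated cells, 3 rose (TGFBI, FN1 and TNC) and 4 fell (POSTN, THBS2, SPARC and FBN1), where 22.3% of all tested genes rose and 19.3% fell, 41.6% in all. The median log2 fold changes of the 9 genes in these comparisons were 0.38, -0.38 and 0.2, beside -0.0049, 0.0079 and 0.0311 over all tested genes. The libraries did not overlap for 9, 7 and 8 of the 9 genes in the same order, beside 52.8%, 41.8% and 48.2% of all tested genes. The comparisons share libraries, so their counts are not independent of each other. The genes were chosen with earlier results of these data known, so the shares and medians over all tested genes are given for scale and not as a test.

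**Figure D2:**
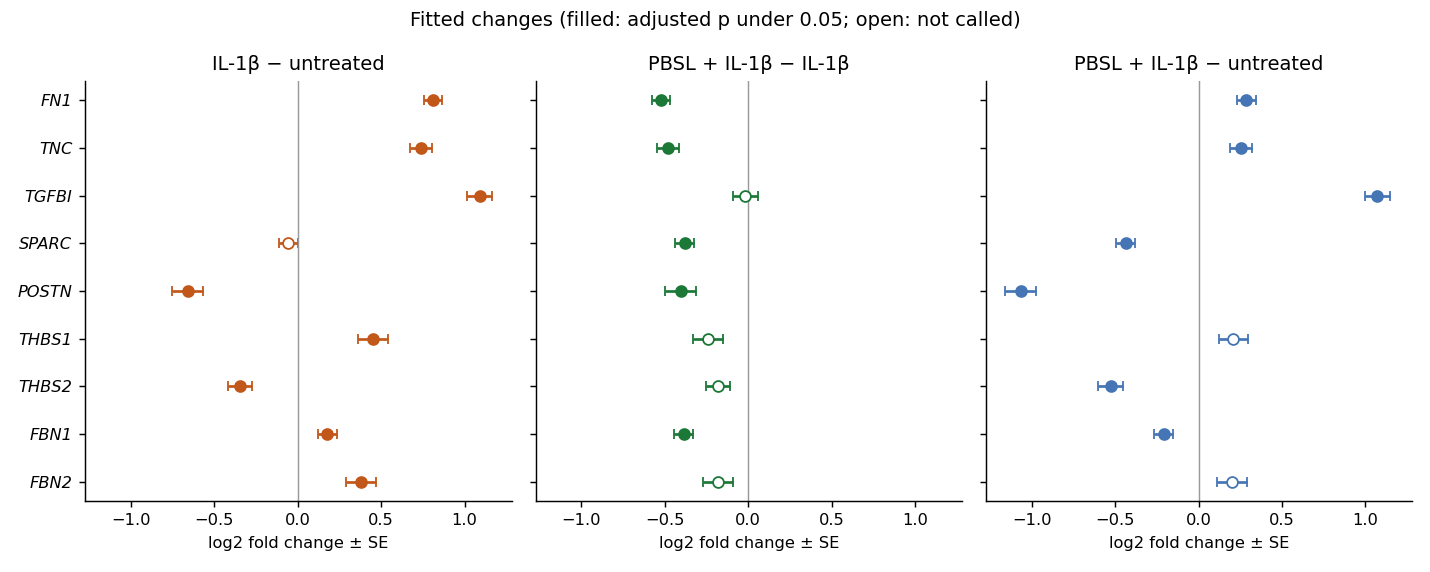
Log2 fold change of log2(value + 1) with its SE (horizontal axis) for the 9 tested genes in the 3 comparisons. Filled points have an adjusted p under 0.05. With IL-1β the points run from -0.66 (POSTN) to 1.09 (TGFBI), and between PBSL + IL-1β and IL-1β they run from -0.52 (FN1) to -0.02 (TGFBI).

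The PBSL + IL-1β libraries differed among themselves. Set against the IL-1β mean on the log2 scale, FN1 stood at -0.44, -0.6 and -0.53 in replicates 1, 2 and 3, and TNC at -0.32, -0.58 and -0.54. THBS1, at -0.03, -0.44 and -0.25, and POSTN, at -0.27, -0.67 and -0.28, spread more widely. Replicate 1 was the nearest to the IL-1β mean for 7 of the 9 genes, and replicate 3 for the other 2, THBS2 and TGFBI. Without replicate 1, all 5 genes that fell with PBSL + IL-1β relative to IL-1β were called, and THBS1 was added to them.

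**Figure D3:**
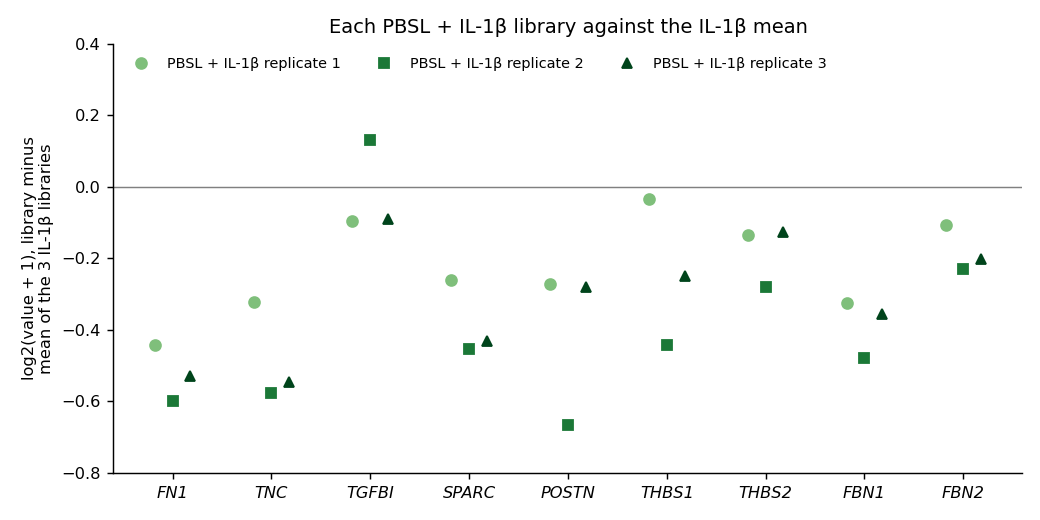
Log2(value + 1) of each PBSL + IL-1β library minus the mean of the 3 IL-1β libraries (vertical axis) for the 9 tested genes, with a symbol per replicate. All points are below 0 but that of TGFBI in replicate 2, at 0.13.

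Ratios between related genes gave the balance of forms within a library, on the per-length scale of the table. The ratio of THBS1 to THBS2 averaged 122 ± 11.4 with PBSL + IL-1β, 123 ± 0.887 with IL-1β and 68.3 ± 8.13 in untreated cells (SD, n = 3 each). The libraries of both IL-1β groups, from 115 to 135, were all above the untreated ones, from 60.5 to 76.7. The ratio of TGFBI to POSTN averaged 5.7 ± 1.6, 4.15 ± 0.167 and 1.18 ± 0.139 in the same groups, and its 3 groups did not overlap. The ratio of FBN1 to FBN2 averaged 6.77 ± 0.236 with PBSL + IL-1β, 7.74 ± 1.21 with IL-1β and 9.32 ± 0.448 in untreated cells, and the IL-1β libraries overlapped both other groups. The ratio of FN1 to SPARC, a pair chosen after their values were seen, averaged 1.62 ± 0.0474, 1.79 ± 0.0164 and 0.982 ± 0.033, with no overlap. With 3 libraries a group the smallest 2-sided p of an exact permutation test is 0.1, and these ratios were not tested.

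**Figure D4:**
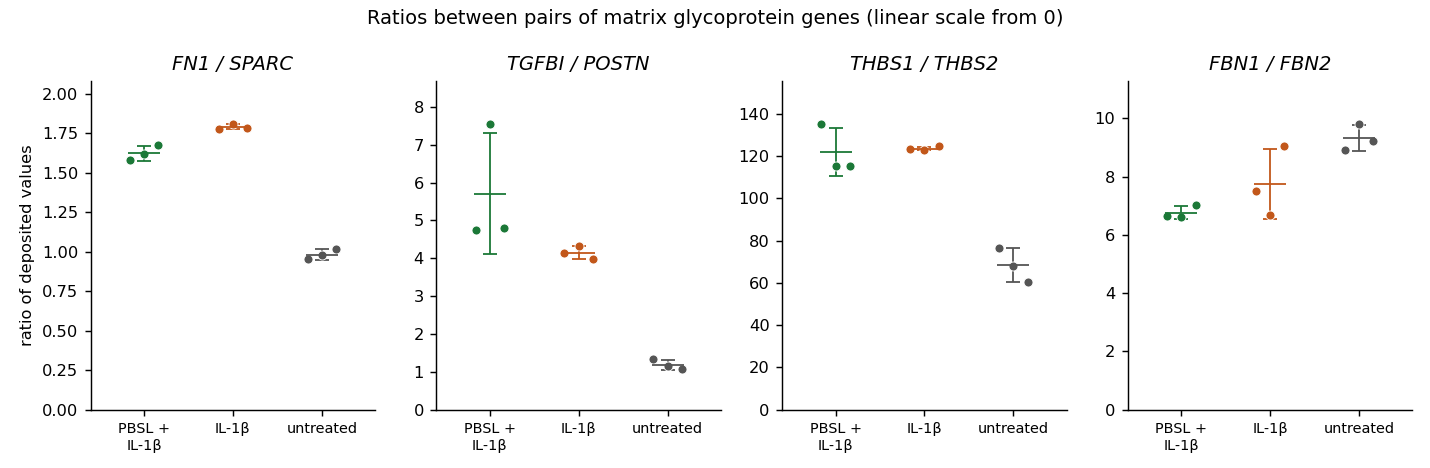
Ratio of deposited values (vertical axis, linear from 0) for 4 pairs of genes in each library, grouped as PBSL + IL-1β, IL-1β and untreated, with mean ± SD (n = 3). The ratio of THBS1 to THBS2 is at 115 to 135 in both groups given IL-1β and at 60.5 to 76.7 in untreated cells.

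Genes outside the 10 were ranked by likeness to each tested glycoprotein gene over the 9 libraries, by Pearson's r of log2(value + 1). The r is given as a description, and likeness among the 10 genes themselves was not ranked. Of these other genes, ITGAV followed FN1 most closely (r = 0.988), an integrin subunit that binds fibronectin and vitronectin. KRTAP1-5 (0.987) and MMP7, or matrilysin (0.986), came next. ITGAV averaged 52.5 ± 5.78 with PBSL + IL-1β, 74.5 ± 2.00 with IL-1β and 44.5 ± 2.72 in untreated cells. SPARC was followed by COL1A2, a chain of type I collagen (0.994), CYP4F11 (0.993) and CCDC80 (0.992). TNC was followed by B4GALT1 (0.993), COL5A3 (0.992) and ATF4 (0.991), and POSTN by ABLIM1 (0.998), STON1 (0.995) and ATP10D (0.994). TGFBI was followed by IRAK2, a kinase of the IL-1 receptor pathway (0.996), SORBS2 (0.995) and PIM2 (0.995). THBS1 was followed by ZNF675 (0.99), GPR176 (0.971) and BTN3A3 (0.968), and THBS2 by EPHB3 (0.993), CRYL1 (0.988) and FAT4 (0.987). FBN1 was followed by GOLM1 (0.981), ALDH1L2 (0.98) and ITGB1, the integrin subunit shared by the main fibronectin receptors (0.976), and FBN2 by CYTH1 (0.967), RNASE2 (0.95) and MXD1 (0.932). Libraries of a group share their treatment, so the 9 points behind each r are not independent.

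For the lists that follow, 16.2% of all tested genes rose and 16% fell with IL-1β relative to untreated cells. The shares were 11.5% and 11% between PBSL + IL-1β and IL-1β, and 22.3% and 19.3% between PBSL + IL-1β and untreated cells. The lists were chosen with earlier results of these data known, so these shares are given for scale and not as a test. Most of the other matrix glycoproteins tested fell with PBSL + IL-1β relative to IL-1β. Of 37 such genes measured, 18 were tested, and 13 fell and none rose in this comparison (median log2 fold change -0.28). All 18 fold changes were below 0, and 14 had an unadjusted p under 0.05. The smallest p-values were those of MATN2, or matrilin 2 (-0.52, adjusted p = 0.00312 by limma), FBLN2, or fibulin 2 (-0.64, adjusted p = 0.00322), and FNDC1, a protein with fibronectin type III domains (-0.48, adjusted p = 0.00355). FBLN2 averaged 19.3 ± 3.42 with PBSL + IL-1β, 30.2 ± 0.726 with IL-1β and 21.3 ± 1.19 in untreated cells. In the IL-1β libraries 4 of the 18 rose and 6 fell relative to untreated cells (median -0.09), with IGFBP7 (0.66) and CTHRC1 (0.54) among those that rose and MFGE8, a bridging protein of apoptotic cells (-0.32), among those that fell. Between PBSL + IL-1β and untreated cells 1 rose, CTHRC1 (0.42), and 11 fell (median -0.36). The smallest p-values were those of MATN2 (-0.87), MFGE8 (-0.53) and EFEMP1 (-0.68), while the lowest fold change was that of HMCN1 (-0.97).

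Of the microfibril and elastic fibre genes tested, 12 were not called with IL-1β relative to untreated cells. Among all tested genes 16.2% rose and 16% fell in this comparison. Of 19 tested, 4 rose and 3 fell relative to untreated cells (median -0.11), with ADAMTS6 (1.06) and LOX, the lysyl oxidase that cross-links collagen and elastin (1.17), among those that rose and LTBP3, a latent TGF-β binding protein (-0.68), among those that fell. Of the same 19, 8 fell and none rose with PBSL + IL-1β relative to IL-1β (median -0.21), with 12 lower and 0 higher at an unadjusted p under 0.05, and all 3 with the smallest p-values were lysyl oxidases, LOX (-0.6, adjusted p = 0.0036 by limma), LOXL3 (-0.46) and LOXL4 (-0.47). LOX averaged 202 ± 34.9 with PBSL + IL-1β, 304 ± 12.3 with IL-1β and 135 ± 6.45 in untreated cells. LOXL4 averaged 0.618, 1.24 and 1.42 in the same groups, close to the filter value of 1. LOXL1 and LOXL2 were the other lysyl oxidases tested. Against untreated cells, ADAMTS6 (0.85) and LOX (0.57) rose with PBSL + IL-1β and 9 fell (median -0.21), with LTBP3 (-0.86) and LOXL3 (-0.89) at the smallest p-values.

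Receptors for fibronectin, tenascin and thrombospondin mostly rose with IL-1β. Of 15 tested, 9 rose and 3 fell relative to untreated cells (median 0.26). SDC4, or syndecan 4, a heparan sulfate co-receptor for fibronectin, rose by 1.5 on the log2 scale (adjusted p = 3.1e-10 by limma), CD47, the thrombospondin receptor, by 0.93, and ITGA2, a collagen-binding integrin subunit, by 1.02. Of these 15, 5 fell and none rose with PBSL + IL-1β relative to IL-1β (median -0.13; 8 lower and 0 higher at an unadjusted p under 0.05), namely ITGAV (-0.5, adjusted p = 0.00312 by limma), LRP1 (-0.36), ITGA5, the partner of ITGB1 in the classical fibronectin receptor (-0.26), ITGB1 (-0.25) and ITGA3 (-0.24). ITGB1 averaged 805 ± 51.1 with PBSL + IL-1β, 954 ± 24.7 with IL-1β and 888 ± 39.7 in untreated cells. Between PBSL + IL-1β and untreated cells 7 rose and 4 fell (median 0.09), with SDC4 (1.43), ITGA2 (1.18) and SDC2 (-0.72) at the smallest p-values.

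About as many TGF-β ligands, receptors and targets rose with IL-1β as did not pass the test. Of 23 tested, 11 rose, 2 fell and 10 were not called with IL-1β relative to untreated cells (median 0.26), with INHBA, a subunit of activin (1.68), and TGIF1 (0.8) among those that rose and CTGF, a matricellular protein gene now named CCN2 (-1.79), among those that fell. Of these 23, 8 fell and none rose with PBSL + IL-1β relative to IL-1β (median -0.12), with 10 lower and 0 higher at an unadjusted p under 0.05. The smallest p-values were those of COL1A1 (-0.73, adjusted p = 0.00291 by limma), CTGF (-0.56, adjusted p = 0.00312) and the ligand TGFB3 (-0.78, adjusted p = 0.00324). TGFB3 averaged 1.96 ± 0.585 with PBSL + IL-1β, 4 ± 0.35 with IL-1β and 4.45 ± 0.222 in untreated cells. Against untreated cells, PBSL + IL-1β libraries had 8 that rose and 7 that fell (median -0.01), with CTGF (-2.35), INHBA (1.48) and TGIF1 (0.78) at the smallest p-values.

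Most tested proteases that are known to cut fibronectin or tenascin rose with IL-1β. Of 20 tested, 14 rose and none fell relative to untreated cells (median 0.38; 2 lower at an unadjusted p under 0.05), with MMP3 (3.23), cathepsin S (CTSS, 3.27) and MMP1 (3.48) at the smallest p-values. The collagenase MMP1 (0.47) and the gelatinase MMP9 (0.58) rose with PBSL + IL-1β relative to IL-1β and 7 fell (median -0.16). The smallest p-values among those that fell were those of MMP7 (-1.15, adjusted p = 0.000839 by limma), MMP3 (-0.32) and MMP2 (-0.3), and MMP13 (-0.71) and MMP19 (-0.41) fell further than the last 2. MMP7 averaged 2.65 ± 0.595 with PBSL + IL-1β, 7.04 ± 0.434 with IL-1β and 0.71 ± 0.0934 in untreated cells. MMP10 and CTSK averaged 0.893 and 0.866 in untreated cells. MMP7, MMP10 and CTSK passed the filter through the groups given IL-1β, so the filter favoured their rise. Against untreated cells 11 rose with PBSL + IL-1β and 3 fell (median 0.25), with MMP3 (2.9), CTSS (3.26) and MMP1 (3.94) at the smallest p-values.

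**Figure D5:**
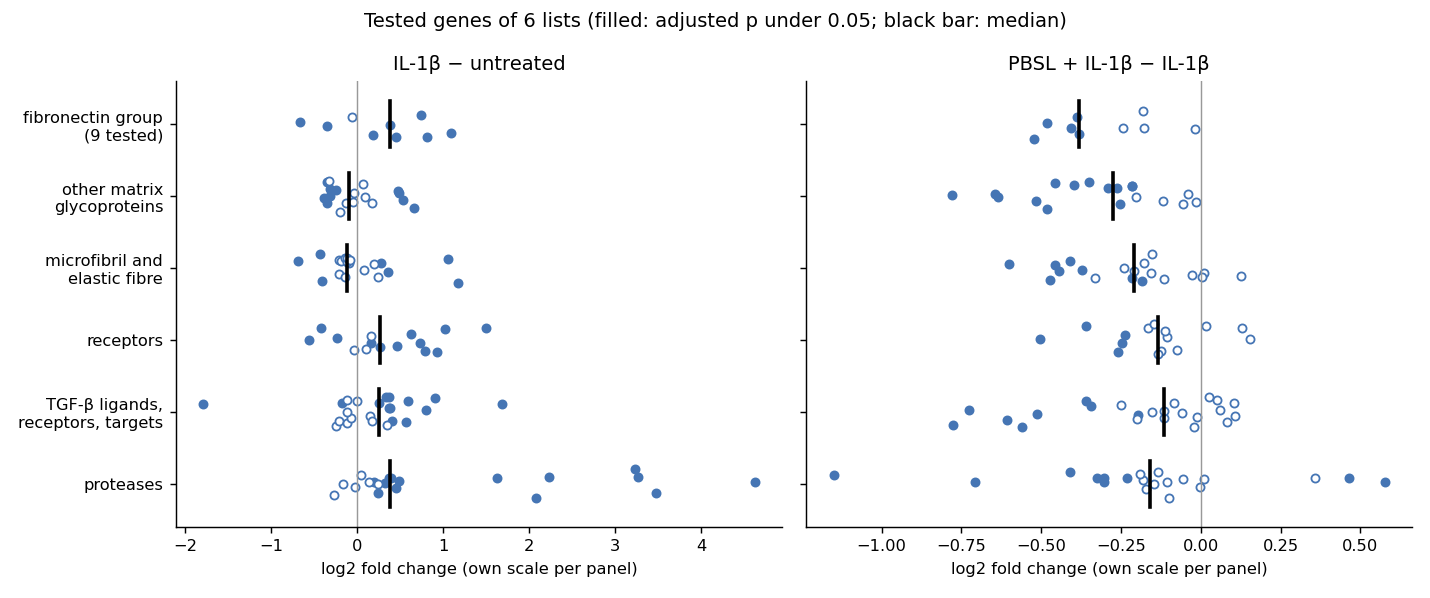
Log2 fold change (horizontal axis, own scale per panel) of each tested gene of 6 lists with IL-1β relative to untreated cells and with PBSL + IL-1β relative to IL-1β. Filled points have an adjusted p under 0.05 and black bars are medians. The median of the fibronectin group is 0.38 in the first comparison and -0.38 in the second.

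Markers of cell types were followed beside these results. The 12 mesenchymal markers summed to 6644 to 7448 with PBSL + IL-1β, 7943 to 8109 with IL-1β and 7093 to 7669 in untreated cells, and of the 11 tested none rose and 7 fell with PBSL + IL-1β relative to IL-1β (8 lower and 0 higher at an unadjusted p under 0.05), with COL1A2 (-0.79), COL5A1 (-0.72) and COL1A1 (-0.73) at the smallest p-values and COL3A1 (-0.82) at the lowest fold change. With IL-1β relative to untreated cells 5 of the 11 rose and PDGFRB (-0.38) fell, with DCN (3.34), LUM (2.44) and COL6A2 (0.51) at the smallest p-values. The chondrocyte markers summed to 13.6 to 15.6 with PBSL + IL-1β, 15.5 to 17.2 with IL-1β and 19.6 to 21.9 in untreated cells. With IL-1β relative to untreated cells ACAN (0.69) rose and HAPLN1 (-1.1), SOX9 (-0.41) and COL11A1 (-0.37) fell, which were the 4 tested. ACAN averaged 1.8, 1.42 and 0.501 in the PBSL + IL-1β, IL-1β and untreated groups, and HAPLN1 0.369, 0.518 and 2.27. Both passed the filter through the groups where they were high, so the direction of each was tied to the filter. COL11A1 also fell with PBSL + IL-1β relative to IL-1β (-0.48). COL1A1 stands in both the mesenchymal and the TGF-β lists, and LTBP1 and LTBP2 in both the microfibril and the TGF-β lists. MMP1 and MMP3 stand among both the proteases and the genes listed as a check of the cytokine. The 10 macrophage markers summed to 85.8 to 91.3 with PBSL + IL-1β, 100.2 to 104 with IL-1β and 73.1 to 80.3 in untreated cells, which was mostly CD68, while CD14 never exceeded 0.53 and PTPRC 0.393. CD68 (0.41), CSF1R (0.33) and FCER1G (0.6), the 3 tested, rose with IL-1β relative to untreated cells. FCER1G averaged 0.716 in untreated cells and passed the filter through the groups given IL-1β, so its direction was tied to the filter. CD68 (-0.22) fell with PBSL + IL-1β relative to IL-1β. The 9 epithelial markers summed to 58.2 to 77.7 with PBSL + IL-1β, 77.5 to 79.4 with IL-1β and 139 to 162 in untreated cells. EPCAM was at no more than 0.489, and 3 of the 9 stayed under 1 in every library. Of the 3 tested, CLDN4 (1.03) rose and KRT8 (-1.09) and KRT18 (-0.85) fell with IL-1β relative to untreated cells. In any library KRT8 reached at most 41.6, KRT18 104 and CLDN4 4.72, so untested markers add to the highest untreated sum. KRT8 (-0.26) also fell with PBSL + IL-1β relative to IL-1β. Of the endothelial list 6 of 7 markers and of the platelet list all 5 stayed under 1 in every library, and the 1 endothelial marker tested was called in no comparison. The part of these shifts in the results was not tested.

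SPARC, TNC, THBS1 and FBN2 share exonic bases with a gene on the opposite strand in GENCODE 29, namely 381 with CLMAT3, 129 with DEC1, 448 with FSIP1 and 411 with AC037198.2, and 56 with SLC27A6. The library kit kept strand, but whether counting used it is not given in the sources used here. FSIP1 reached at most 0.736 and SLC27A6 at most 0.096 in any library. The other 3 genes were not listed under these symbols among the deposited values, so no level can be given for them.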

How the data were processed

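mRNA libraries from SW1353 cells were made with a directional kit, per the labels' protocols. Trim Galore, STAR and HTSeq with build hg38 were used by the authors, per the submitters' processing notes, without versions. The deposited signal values had been normalized by the authors, and whether as FPKM or TPM is not given in the sources used here. As they are not counts, no count model was used.

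Genes that reached 1 in 3 or more libraries were tested with limma 3.58.1 (R 4.3.3, variance trend) on log2(value + 1), with 1 mean per group over all 9 libraries, 2-sided, with Benjamini-Hochberg adjustment over 11924 genes per comparison. The procedure was tested on simulated data. Intervals are 95% intervals from the same fit. Other genes were named as the 3 called members of each list with the smallest p per comparison (ITGA3, ITGB1, MMP9, VIM, CD14, PTPRC, COL2A1, EPCAM, MMP13, MMP19, HMCN1 and COL3A1 were added after their values were seen, as were further called genes where a count was small) and the 3 genes most like each of the 9 tested. The genes and the 12 other lists were chosen with earlier results of these data known. Alternatives covered the pseudocount, filter, scaling, libraries in the fit, variance trend, replicate block and each library left out. Sequences come from RefSeq (GRCh38.p14) and positions from GENCODE 29. Plots were drawn with matplotlib 3.10.9 from tables made with pandas 2.3.3 and numpy 2.4.6 in Python 3.11.15.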

Additional observations from a re-analysis of the deposited data

How the results depend on the processing

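Over 16 alternatives, the log2 fold changes of FN1 ran from 0.77 to 0.83 for IL-1β against untreated cells and from -0.56 to -0.48 for PBSL + IL-1β against IL-1β, and each of these calls held. FN1, TNC, SPARC, FBN1 and POSTN kept their fall with PBSL + IL-1β relative to IL-1β in each of the 16, and THBS1 joined them without PBSL + IL-1β replicate 1. FBN1 lost its call for IL-1β against untreated cells in 8 of 16, among them without the variance trend (adjusted p = 0.0514) and with a replicate block (log2 fold change 0.18, adjusted p = 0.072), and the block changed no other call of the 9 genes. Same-numbered libraries of different groups had deviations correlated at -0.225 to 0.0681, beside -0.111 to 0.196 for differently numbered ones. The numbers were not taken as pairs. With the block 3479, 2131 and 4535 genes were called in the 3 comparisons, against 3831, 2684 and 4965. TGFBI between PBSL + IL-1β and IL-1β, not called in any alternative, ran from -0.0929 (without PBSL + IL-1β replicate 2) to 0.0207 and turned to 0.00689 without IL-1β replicate 2, 0.0207 without PBSL + IL-1β replicate 1 and 0.0186 without PBSL + IL-1β replicate 3; the cause was not tested. When single libraries were left out, the number of all genes called between PBSL + IL-1β and IL-1β ran from 1314 to 3904. It was 1448, 1314 and 1360 without IL-1β replicates 1, 2 and 3 and 1436 without PBSL + IL-1β replicate 2. No depth can be given, so how far it limits THBS2, FBN2 and FBLN1 is unknown.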
